A study of Mus musculus with 8 samples.

Results

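The 8 genes described here mark hepatocytes that lie around the central vein of the liver lobule: Cyp2e1, Glul, Cyp1a2, Oat, Rhbg, Slc1a2, Tbx3 and Lect2. They were chosen by name, out of 21938 protein-coding genes of the annotation, and every accessible interval that overlapped a gene body or the 10 kb on either side was taken. Intervals within 1 kb of a transcription start site (TSS) were called promoter intervals and the others distal. Open chromatin was profiled by bulk ATAC-Seq, an assay that marks it with a transposase, in hepatocytes of mice labelled as C57BL/6, on a normal diet and 10 to 12 weeks old, which were male and of the substrain C57BL/6J per the study's methods. Cells were obtained by a 2-step collagenase perfusion from undamaged liver (0 h) or at 48, 72 and 96 h after partial hepatectomy (PHx), the removal of part of the liver. Each of the 4 time points had 2 libraries, and the labels name no genetic change. The nuclei were pooled over all hepatocytes of a preparation, so fewer pericentral cells and less accessibility per nucleus cannot be told apart. The study's text describes biological replicates of this assay at 0 and 48 h, from separate hepatocyte preparations and more in number than the libraries used here, and its methods give several mice for every time point. The labels do not tie the libraries to mice, so the p-values below measure only the spread between these libraries.

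Blood enters the liver lobule at the portal side and leaves through the central vein. Endothelial cells of the central vein release Wnt ligands and R-spondin 3, which stabilise β-catenin in the hepatocytes next to them, and β-catenin then acts with T-cell factor/lymphoid enhancer factor (TCF/LEF) proteins on DNA. This programme is known to maintain pericentral enzymes and transporters and to be opposed on the portal side of the lobule.

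The 8 genes fall into 3 kinds by role. Cyp2e1 and Cyp1a2 encode cytochrome P450 enzymes that act on ethanol and acetaminophen (Cyp2e1) or on caffeine and aromatic amines (Cyp1a2), and Cyp1a2 is a target of the aryl hydrocarbon receptor. Glul (glutamine synthetase), Oat (ornithine aminotransferase), Rhbg (an ammonia transporter) and Slc1a2 (a glutamate transporter) serve the capture of ammonia and glutamate. Tbx3 encodes a T-box transcription factor, and Lect2 a protein secreted by hepatocytes, both known as β-catenin targets in the liver.

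The sequences shown first are those that the later values refer to: the start sites of Cyp2e1, Cyp1a2 and Lect2, then 7 windows of 200 bp centred on the summit of a region. Start-site sequences run from 250 bases before to 50 bases after the RefSeq start and are on the strand of the gene. Windows are on the plus strand. All are from GRCm38.p6, the coordinates of mm10, and capitals mark matches to 1 of 8 motifs.

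Cyp2e1 start site, chr7:140763569-140763868, plus strand: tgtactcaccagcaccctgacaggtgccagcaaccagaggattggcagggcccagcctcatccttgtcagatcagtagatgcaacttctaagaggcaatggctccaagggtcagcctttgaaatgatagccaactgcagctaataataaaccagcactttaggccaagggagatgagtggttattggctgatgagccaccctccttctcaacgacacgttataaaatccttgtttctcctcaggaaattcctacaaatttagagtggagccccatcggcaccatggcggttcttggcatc
Cyp1a2 start site, chr9:57683606-57683905, minus strand: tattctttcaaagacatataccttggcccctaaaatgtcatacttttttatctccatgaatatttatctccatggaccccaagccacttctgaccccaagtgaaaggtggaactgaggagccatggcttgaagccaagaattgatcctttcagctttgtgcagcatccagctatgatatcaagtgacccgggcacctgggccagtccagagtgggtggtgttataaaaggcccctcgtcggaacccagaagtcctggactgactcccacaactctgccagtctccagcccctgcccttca
Lect2 start site, chr13:56548489-56548788, minus strand: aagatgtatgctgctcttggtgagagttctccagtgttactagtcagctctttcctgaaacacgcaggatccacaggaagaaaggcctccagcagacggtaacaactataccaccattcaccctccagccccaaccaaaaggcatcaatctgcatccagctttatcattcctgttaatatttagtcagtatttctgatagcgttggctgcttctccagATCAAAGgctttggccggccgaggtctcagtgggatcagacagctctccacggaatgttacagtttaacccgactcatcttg
Cyp2e1 -7.05 kb, chr7:140756592-140756791: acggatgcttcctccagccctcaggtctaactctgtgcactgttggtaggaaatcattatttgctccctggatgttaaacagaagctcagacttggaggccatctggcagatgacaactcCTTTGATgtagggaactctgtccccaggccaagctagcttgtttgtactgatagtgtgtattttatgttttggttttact
Slc1a2 +53.02 kb, chr2:102711578-102711777: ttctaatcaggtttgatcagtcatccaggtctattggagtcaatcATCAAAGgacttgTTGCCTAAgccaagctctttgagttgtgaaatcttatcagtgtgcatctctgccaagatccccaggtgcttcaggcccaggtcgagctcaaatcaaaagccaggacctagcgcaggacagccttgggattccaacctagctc
Slc1a2 +57.32 kb, chr2:102715877-102716076: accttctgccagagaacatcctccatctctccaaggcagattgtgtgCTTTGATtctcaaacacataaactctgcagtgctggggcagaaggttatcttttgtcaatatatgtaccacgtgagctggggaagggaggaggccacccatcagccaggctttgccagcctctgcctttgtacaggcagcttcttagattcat
Slc1a2 +106.14 kb, chr2:102764703-102764902: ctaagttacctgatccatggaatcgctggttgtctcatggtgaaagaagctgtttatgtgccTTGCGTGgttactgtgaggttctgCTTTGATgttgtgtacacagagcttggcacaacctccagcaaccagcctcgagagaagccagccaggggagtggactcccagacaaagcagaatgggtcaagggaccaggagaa
Cyp1a2 -4.11 kb, chr9:57687711-57687910: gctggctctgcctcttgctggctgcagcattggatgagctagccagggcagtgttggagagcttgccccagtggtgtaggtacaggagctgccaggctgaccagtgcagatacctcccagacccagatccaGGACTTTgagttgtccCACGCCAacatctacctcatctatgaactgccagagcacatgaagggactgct
Lect2 -1.07 kb, chr13:56549473-56549672: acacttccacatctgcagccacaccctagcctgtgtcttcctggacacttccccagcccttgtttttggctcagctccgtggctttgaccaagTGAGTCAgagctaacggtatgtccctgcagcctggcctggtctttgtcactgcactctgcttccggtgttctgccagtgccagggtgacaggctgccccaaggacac
Lect2 -2.33 kb, chr13:56550732-56550931: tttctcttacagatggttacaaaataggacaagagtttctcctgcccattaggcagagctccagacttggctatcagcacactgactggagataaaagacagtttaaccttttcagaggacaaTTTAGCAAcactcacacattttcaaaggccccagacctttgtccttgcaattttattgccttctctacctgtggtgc

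The start sites of Cyp2e1 and Cyp1a2 held none of the 8 motifs in these letters. That of Lect2 held the TCF/LEF letters, ATCAAAG, 32 bases before the RefSeq start. The windows of 4 regions (Cyp2e1 -7.05 kb and the 3 of Slc1a2) held the same letters on 1 strand or the other, and the one at Lect2 -1.07 kb held the AP-1 letters, TGANTCA. Distances are from the annotated 5′ end of the gene, along its strand, to the summit of the region.

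The deposited lists held 105206 to 154577 distinct intervals per library. They give the fold enrichment over local background and the −log10 p of each peak but no read counts, so depth is unknown. The −log10 p of the 50000th interval ranged from 8.05 to 15.2, and both 48 h libraries (8.05 and 8.62) and 96 h replicate 2 (8.29) stood lowest. Intervals were therefore compared within a list, as a percentile of rank by −log10 p on which 100 is the strongest interval, or as fold enrichment after quantile normalisation over regions found in all 8 lists. The summed promoter percentile of 6 hepatocyte markers was 471 and 400 at 0 h, then 224 and 318 at 48 h, then 326 and 378 at 72 h, and finally 394 and 354 at 96 h. The hepatocyte sums were lowest at 48 h, where 3 of the 6 promoters lay wholly below 0 h and 0 above, against 19.6% and 18.3% of coding promoters. Of these 3, Alb and Tat had no interval in either 48 h list, and Hnf4a stood at 98.0 and 98.2 at 0 h and 95.4 and 97.6 at 48 h. Ttr (none and 67.0 at 48 h), Apoa1 and Serpina1a overlapped their 0 h values, with means of 72.7 against 73.3 for Apoa1 and 68.6 against 58.6 for Serpina1a. On normalised fold enrichment, 2 of the 3 hepatocyte markers that could be fitted were positive at 48 h and 1 negative (median log2 difference 0.20). Alb, Tat and Ttr could not be fitted, as each had no interval in at least 1 of the 48 h lists, so this median leaves them out. Of the other cell types, the defining promoters of Kupffer and immune cells (Vsig4, Cd5l, Ptprc), sinusoidal endothelium (Stab2, Lyve1), myofibroblasts (Acta2) and cholangiocytes (Krt19) had no interval in any list. The summed endothelial percentile over 6 genes was 87.0 and 93.2 at 0 h and 125 to 222 in the PHx libraries. The Kupffer and immune sum over 5 genes ran from 3.99 to 16.6 at 0 h and from 0 to 32.7 after PHx, the stellate sum from 157 to 188 and from 166 to 247, and the cholangiocyte sum from 225 to 251 and from 235 to 292. The part of these shifts in the values below was not tested.

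Merging the intervals of all 8 lists gave 130 regions at the 8 genes, 14 at promoters and 116 distal. All 8 lists held 34 of them (26.2%), against 18.2% of all 315767 regions, and 51 (39.2%) came from 1 list, against 52.5%. The 34 common regions were 7 promoter and 27 distal regions. Scaled to the length searched, Rhbg had 15.7 common regions per 100 kb, Lect2 15.4, Glul 13.4, Cyp1a2 11.2, Oat 10.3, Cyp2e1 9.60, Slc1a2 5.92 and Tbx3 5.87. The median over coding genes was 4.18 per 100 kb, and the share of coding genes with a lower density ran from 62.4% for Tbx3 to 96.7% for Rhbg. The loci differ in size: Slc1a2 spans 132 kb and held 59 of the 130 regions, 30 of them from a single list, whereas Glul spans 9.78 kb and held 5, of which 4 were common.

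**Figure D1:**
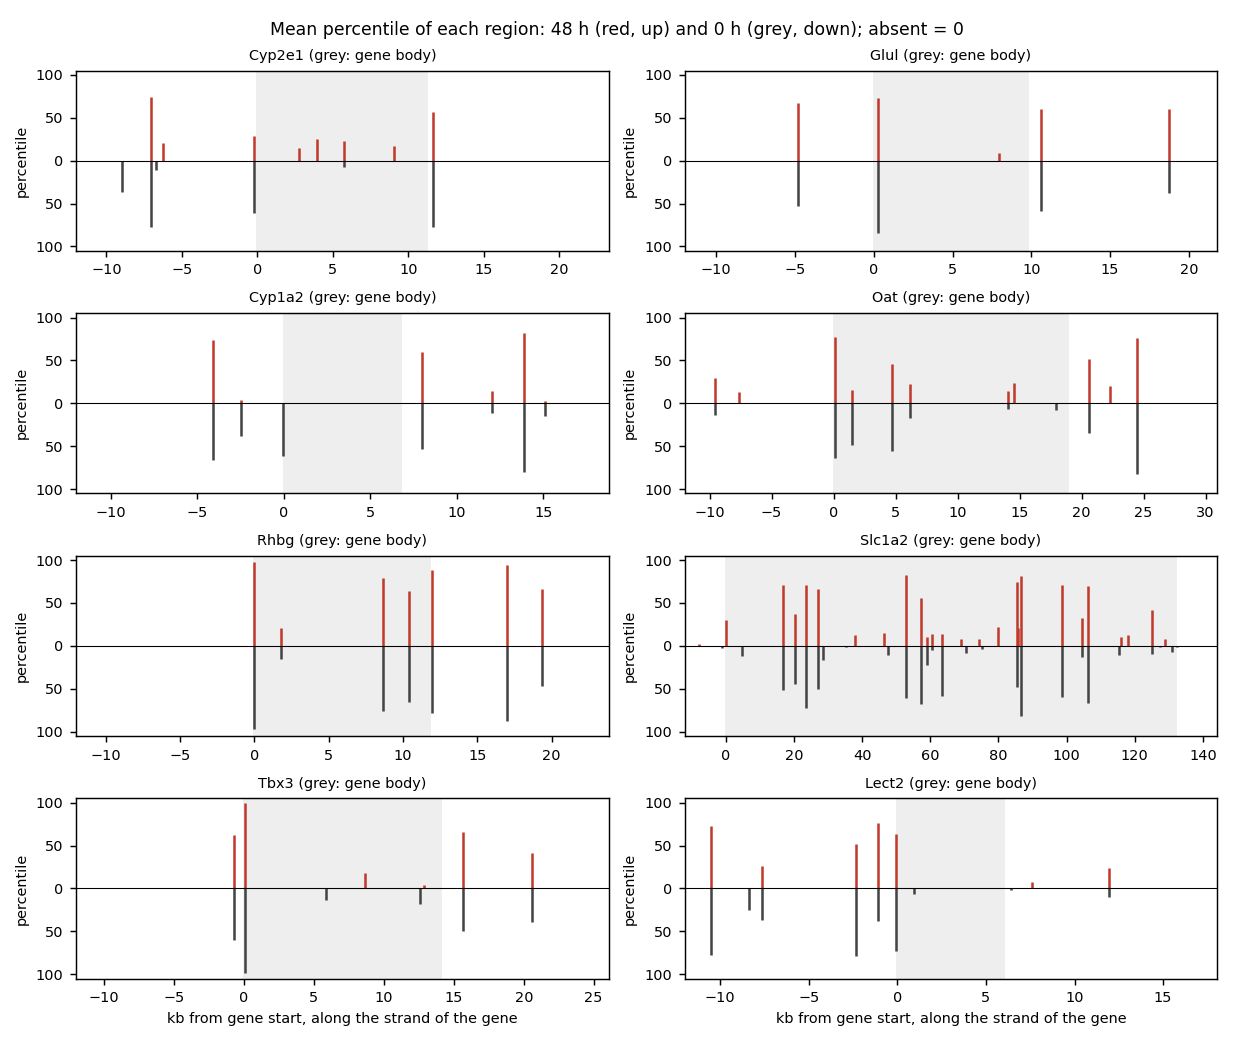
Mean within-list percentile of each of the 130 regions at 48 h (red, upwards) and at 0 h (grey, downwards), 2 libraries each, against distance in kb from the gene start, with the gene body shaded and an absent interval set to 0. The Cyp1a2 start site carries a grey line only, while its distal regions at -4.11, +8.0 and +13.89 kb carry both.

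Among the promoters, those of the transcription factor and the ammonia transporter were the most accessible and those of the P450 genes and Slc1a2 the least. The mean promoter percentile at 0 h was 98.1 ± 0.809 for Tbx3, 96.6 ± 2.09 for Rhbg, 84.5 ± 1.26 for Glul, 72.4 ± 3.93 for Lect2, 64.2 ± 12.6 for Oat, 61.4 ± 3.17 for Cyp1a2, 61.2 ± 2.60 for Cyp2e1 and 11 ± 10.4 for Slc1a2 (SD, n = 2 libraries each). The values of Tbx3 and Rhbg overlapped, as did those of Lect2, Oat, Cyp1a2 and Cyp2e1 in a chain of neighbours through Oat, whose 2 libraries lay far apart. Glul stood clear of both neighbours in that order. The observed over expected CpG ratio of the RefSeq start site was 0.780 for Oat, 0.559 for Glul, 0.413 for Lect2, 0.217 for Cyp2e1, 0.167 for Cyp1a2 and 0.0641 for Slc1a2, over the 6 genes with a RefSeq entry. RefSeq starts of Rhbg and Tbx3 were not matched.

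Both P450 promoters stood lower in the 48 h lists than at 0 h. The Cyp1a2 promoter region (chr9:57683439-57684059) stood at percentiles 59.2 and 63.7 at 0 h, had no interval in either 48 h list, stood at 62.8 and 63.9 at 72 h, and finally at 32.5 and 17.9 at 96 h. Both 48 h libraries and both 96 h libraries thus lay below both 0 h libraries, and the 72 h libraries overlapped them. The Cyp2e1 promoter region (chr7:140763352-140763953) stood at 59.4 and 63.1 at 0 h, then 9.26 and 49.2 at 48 h, then 42.1 and 43.2 at 72 h, and finally 53.3 and 49.5 at 96 h. All 6 PHx libraries lay below both 0 h libraries, and 48 h replicate 1 lay far below its partner. The hepatocyte marker sum given above was also lowest in 48 h replicate 1.

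For promoters of the genes that handle ammonia and glutamate, both 48 h libraries lay below 0 h for Glul, overlapped 0 h for Oat and Rhbg and lay too far apart to place for Slc1a2. The Glul promoter stood at 85.4 and 83.6 at 0 h, then 67.2 and 79.8 at 48 h, then 85.1 and 90.6 at 72 h, and finally 85.3 and 92.7 at 96 h. Only the 48 h libraries lay below both 0 h libraries. The Oat promoter stood at 73.0 and 55.3 at 0 h, then 71.3 and 84.3 at 48 h, then 81.4 and 81.0 at 72 h, and finally 86.0 and 85.9 at 96 h, so that the 4 libraries of 72 and 96 h lay above both 0 h libraries. The Rhbg promoter ranged from 95.1 to 99.1 over all 8 libraries, with overlap between 0 h and every time but 72 h (98.6 and 98.1 against 98.1 and 95.1 at 0 h). Slc1a2 has several start sites. The one at the 5′ end of the gene (chr2:102658675-102659293) had an interval in 4 PHx lists (59.9 in 48 h replicate 2, 46.9 and 50.8 at 72 h, then 35.1 in 96 h replicate 1) and in neither 0 h list, and the internal one (chr2:102706066-102706692) stood at 18.4 and 3.65 at 0 h, had none at 48 h, and stood at 17.9 and 68.4 at 72 h and 62.9 and 31.2 at 96 h. Taking the stronger start site, all 4 libraries of 72 and 96 h lay above both 0 h libraries, and the 48 h pair was none and 59.9.

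Tbx3 and Lect2 completed the set. The Tbx3 promoter stood at 98.7 and 97.6 at 0 h and between 99.5 and 99.8 in the 6 PHx libraries, all of which lay above both 0 h libraries. The strongest Lect2 promoter interval stood at 69.7 and 75.2 at 0 h, then 76.9 and 75.2 at 48 h, then 74.6 and 80.7 at 72 h, and finally 83.0 and 77.7 at 96 h, and only the 96 h libraries lay wholly above 0 h. In both 48 h libraries and 72 h replicate 2 that interval was not the start site itself but the region at -1.07 kb. The start site alone stood at 54.6 and 72.3 at 48 h and at 74.6 and 56.3 at 72 h, so with start sites taken within 500 bp the mean of the 48 h libraries differed from that of 0 h by -9.0 instead of 3.6. The value of 3.6 ranged from 0.8 (0 h replicate 1 left out) to 6.4 (0 h replicate 2 left out).

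**Figure D2:**
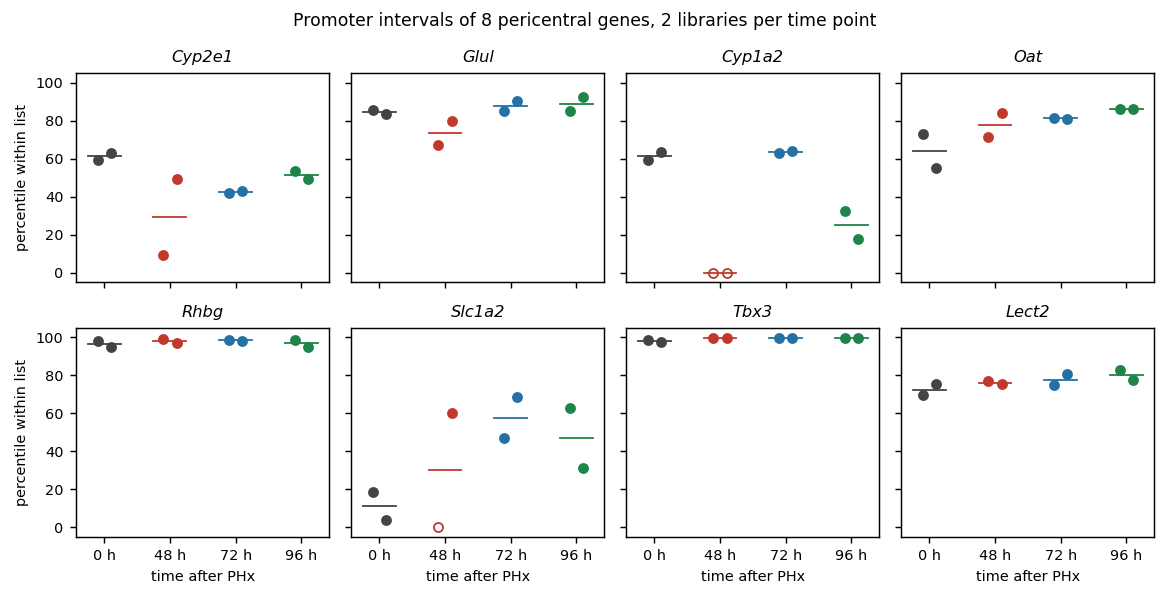
Within-list percentile (100 is the strongest interval) of the strongest promoter interval of each gene, by time after PHx, with 1 point per library, a line for the mean of the 2 libraries and open points at 0 where a list held no interval. The 6 PHx points of Cyp2e1 lie below both 0 h points and those of Tbx3 above them, and both 48 h points of Cyp1a2 are open.

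Over the 8 promoters, 3 lay wholly below 0 h at 48 h (Cyp2e1, Cyp1a2 and Glul) and 1 wholly above it (Tbx3), where 19.6% and 18.3% of 16432 coding promoters did so. At 72 h, 1 lay below and 4 above, against 14.6% and 25.5% of coding promoters, and at 96 h, 2 below and 4 above, against 10.7% and 20.4%. All 6 PHx libraries lay below both 0 h libraries for 1 promoter and above for 1, against 3.28% and 6.27%. Between 48 and 96 h, 6 promoters were higher in both 96 h libraries (all but Rhbg and Slc1a2) and 0 lower, against 19.5% and 10.7% of coding promoters. For Lect2 that count sets the region at -1.07 kb at 48 h against another interval at 96 h, and for Tbx3 the log2 difference in normalised fold enrichment was -0.03 ± 0.19. With 2 libraries against 2, no exact test can give a two-sided p below 0.333, so these counts carry no p-value, and the 3 comparisons with 0 h share the same 2 control libraries. The count at 48 h depended on the measure: on fold enrichment divided by the median of its list, 1 promoter instead of 3 lay below 0 h.

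Over the whole table, no region passed an adjusted p of 0.05 in any comparison. Of 57473 regions found in all 8 lists, limma called 0 (percent called 0) at 48, 72 and 96 h against 0 h and at 96 h against 48 h, while 5828 (10.1%), 3591 (6.25%), 3250 (5.65%) and 4249 (7.39%) had an unadjusted p under 0.05. Of the 34 regions at the 8 genes, 0 were called, with lowest adjusted p of 0.354, 0.701, 0.816 and 0.50. At 48 h, 3 of the 34 were higher and 1 lower at an unadjusted p under 0.05, against 4.93% and 5.21% of all regions. At 72 h, 0 were higher and 1 lower, against 3.73% and 2.52%, at 96 h, 2 were higher and 2 lower, against 3.06% and 2.60%, and between 48 and 96 h, 0 were higher and 1 lower, against 4.0% and 3.39%. The median log2 difference of the 34 was 0.12, 0.03, 0.09 and -0.04, beside 0.00, -0.02, -0.00 and -0.00 for all regions.

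**Figure D3:**
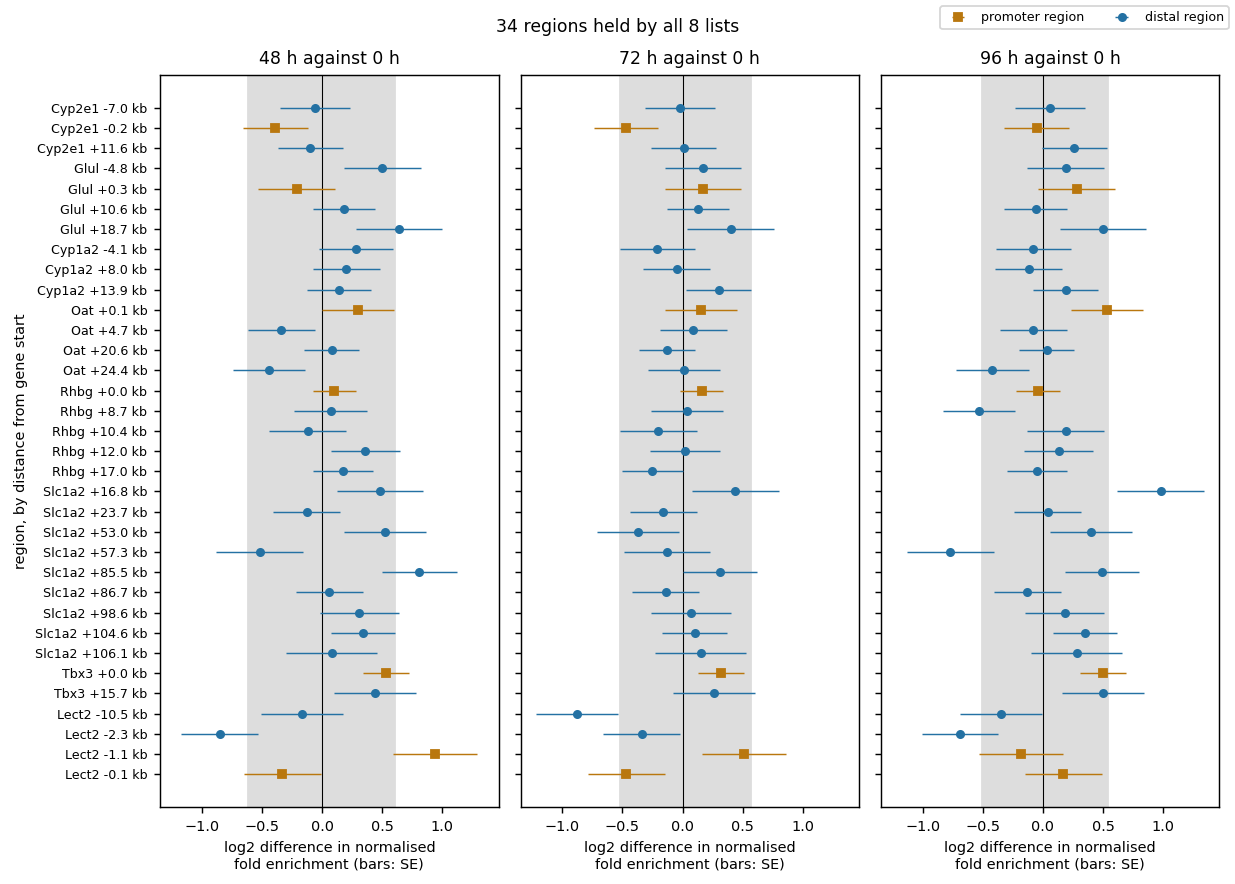
Log2 difference in normalised fold enrichment against 0 h for the 34 regions found in all 8 lists, with SE from limma (2 libraries against 2), squares for promoter and circles for distal regions, and a grey band for the middle 90% of all 57473 regions. Lect2 -1.07 kb lies to the right of the band at 48 h and Lect2 -2.33 kb to the left of it, and no point passed an adjusted p of 0.05.

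Of the promoter regions that could be tested this way, Tbx3 had the lowest p at 48 h. Its normalised fold enrichment (chr5:119670251-119671165, at the first exon) was 11.9 and 11.5 at 0 h, then 18.2 and 15.8 at 48 h, then 13.5 and 15.9 at 72 h, and finally 15.5 and 17.7 at 96 h. The PHx and 0 h libraries did not overlap, which held for 4.50% of all regions in that direction. The log2 difference was 0.53 ± 0.19 at 48 h (SE, limma adjusted p = 0.354), 0.32 ± 0.19 at 72 h and 0.50 ± 0.19 at 96 h (adjusted p = 0.816). At 48 h the Cyp2e1 promoter differed by -0.39 ± 0.27 (limma adjusted p = 0.664), from 3.36 and 4.01 at 0 h to 2.39 and 3.31. At 72 h it had 2.70 and 2.61, a log2 difference of -0.47 ± 0.27 (limma adjusted p = 0.846). The Glul promoter differed at 48 h by -0.21 ± 0.32 (adjusted p = 0.879). The Oat promoter differed by 0.30 ± 0.30 at 48 h and by 0.53 ± 0.30 at 96 h (limma adjusted p = 0.791 and 0.910), and the Rhbg promoter by 0.10 ± 0.18 at 48 h (adjusted p = 0.898). Cyp1a2 and Slc1a2 had no promoter interval in at least 1 list and could not be fitted.

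Lect2 had neighbouring regions that went opposite ways at 48 h, which were chosen for description after their values were seen. The region at -1.07 kb (chr13:56549424-56549866, intergenic), in which an AP-1 match begins 7 bases before the summit, had normalised fold enrichments of 4.76 and 2.74 at 0 h, then 7.33 and 6.56 at 48 h, then 3.78 and 7.02 at 72 h, and finally 3.71 and 2.76 at 96 h. Both 48 h libraries lay above all libraries of 0 and 96 h, and the 72 h libraries lay apart. The log2 difference was 0.94 ± 0.35 at 48 h (limma adjusted p = 0.378) and -1.12 ± 0.35 between 48 and 96 h (adjusted p = 0.50). The region at -2.33 kb (chr13:56550378-56550968, intergenic), with a C/EBP match that begins 23 bases after its summit, had 7.27 and 7.98 at 0 h, then 5.14 and 3.48 at 48 h, then 6.90 and 5.21 at 72 h, and finally 4.82 and 4.59 at 96 h. All 6 PHx libraries lay below both 0 h libraries, as in 4.58% of all regions, with log2 differences of -0.85 ± 0.32 at 48 h (limma adjusted p = 0.374) and -0.69 ± 0.32 at 96 h (adjusted p = 0.873). The start site itself (chr13:56548091-56548738), with the TCF/LEF match at its summit, had 5.92 and 7.59 at 0 h, then 4.66 and 6.08 at 48 h, then 6.01 and 3.87 at 72 h, and finally 7.46 and 7.59 at 96 h, and the 0 h and 48 h libraries overlapped (-0.33 ± 0.32, limma adjusted p = 0.778). The strongest distal region of Lect2, at -10.51 kb, had 7.93 and 6.61 at 0 h and 4.70 and 3.29 at 72 h (-0.88 ± 0.34, limma adjusted p = 0.701), and its 48 h and 96 h libraries overlapped those of 0 h.

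**Figure D4:**
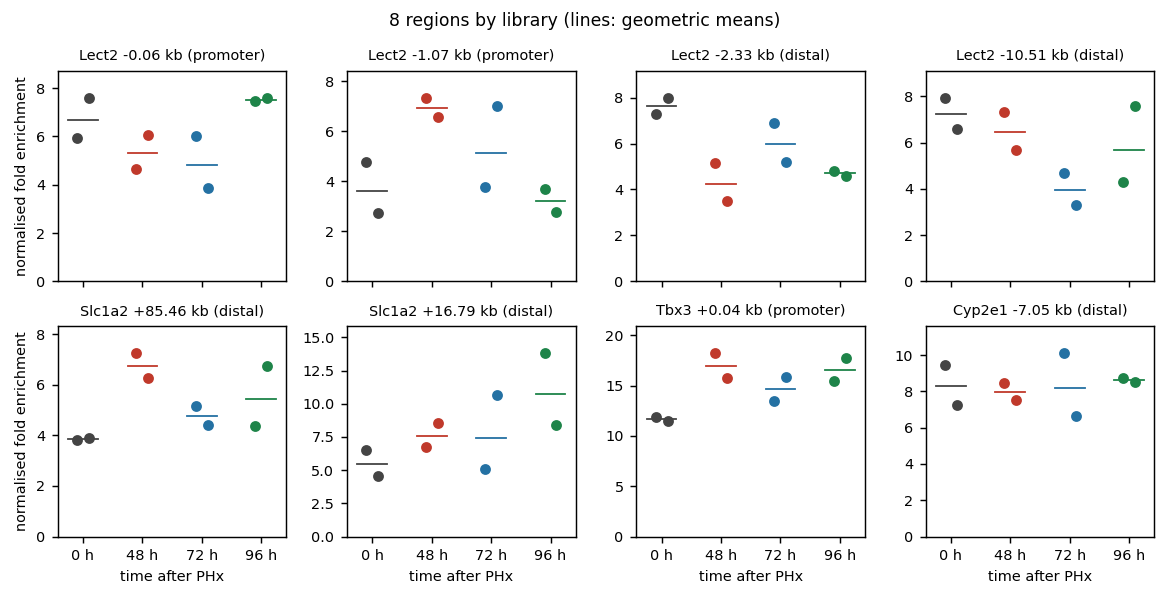
Normalised fold enrichment of 8 regions by time after PHx, with 1 point per library and a line for the geometric mean of each pair. The 48 h points of Lect2 -1.07 kb (7.33 and 6.56) lie above its 0 h points and those of Lect2 -2.33 kb (5.14 and 3.48) below them, while Cyp2e1 -7.05 kb overlaps throughout.

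At the P450 genes, the strongest distal regions overlapped between 0 and 48 h. At Cyp2e1, the region at -7.05 kb (chr7:140756237-140756861, intergenic) had 9.44 and 7.28 at 0 h and 8.45 and 7.51 at 48 h, a log2 difference of -0.06 ± 0.29 (limma adjusted p = 0.967), and its percentile averaged 76.4 against 46.1 for the promoter. At Cyp1a2, the region at +13.89 kb (chr9:57669527-57670158, intergenic) had 9.21 and 6.47 at 0 h and 8.35 and 8.63 at 48 h (0.14 ± 0.27, adjusted p = 0.908), in the same 2 libraries in which the promoter had no interval. The Cyp1a2 region at -4.11 kb, chosen after its values were seen, which holds a xenobiotic response element match, the core recognised by the aryl hydrocarbon receptor, had 5.70 and 6.48 at 0 h and 6.85 and 7.91 at 48 h (0.28 ± 0.31, limma adjusted p = 0.818). Whether promoter and distal regions of a gene differ in their response was not tested.

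Among the transport and ammonia genes, the strongest distal region of Glul, at -4.83 kb, lay in an intron of Teddm2 with a CTCF match across its summit. It had 3.35 and 5.04 at 0 h and 4.85 and 6.90 at 48 h (0.50 ± 0.32, limma adjusted p = 0.640). The strongest distal region of Oat, at +24.45 kb and within an intron of Fgfr2, had 6.86 and 6.13 at 0 h, then 5.27 and 4.36 at 48 h, then 6.92 and 6.18 at 72 h, and finally 4.76 and 4.96 at 96 h. It was lower in both libraries of 48 and 96 h (-0.44 ± 0.30 and -0.42 ± 0.30, limma adjusted p = 0.662 and 0.946), while the Oat promoter was higher at 96 h. That of Rhbg, at +17.03 kb, ranked highest of the 27 distal regions (mean percentile 90.6) and had 11.8 and 9.53 at 0 h and 12.2 and 11.6 at 48 h (0.17 ± 0.25, adjusted p = 0.871). Oat itself lies within the annotated span of Fgfr2, as its region at -9.54 kb, on the other side, is also in an intron of Fgfr2. Regions were assigned by distance alone, so those within another gene cannot be told apart from regions of that gene. That of Tbx3, at +15.68 kb, had 5.04 and 4.01 at 0 h and 4.97 and 7.46 at 48 h (0.44 ± 0.34, limma adjusted p = 0.713).

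Slc1a2 held 9 common distal regions, all in its introns, while none of its start sites had an interval in every list. The strongest, at +86.70 kb (chr2:102745188-102746100), had 7.93 and 7.67 at 0 h and between 6.40 and 9.10 after PHx (0.06 ± 0.28 at 48 h, limma adjusted p = 0.963). Its neighbour at +85.46 kb (chr2:102743983-102744241), chosen after its values were seen, had 3.81 and 3.89 at 0 h, then 7.24 and 6.26 at 48 h, then 5.17 and 4.40 at 72 h, and finally 4.36 and 6.73 at 96 h. All 6 PHx libraries lay above both 0 h libraries, and the log2 difference at 48 h was 0.81 ± 0.31 (limma adjusted p = 0.398). The region at +16.79 kb, chosen in the same way, had 6.55 and 4.55 at 0 h and 13.8 and 8.39 at 96 h (0.98 ± 0.36, limma adjusted p = 0.816), and that at +57.32 kb had 7.28 and 5.50 at 0 h and 5.08 and 2.73 at 96 h (-0.77 ± 0.36, adjusted p = 0.876). Intronic regions of this gene thus lay on both sides of their 0 h values, none past the adjusted threshold.

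Counted over the 34 common regions, 5 lay wholly below 0 h and 8 wholly above at 48 h, where 20.3% and 20.8% of all regions did. At 72 h, 4 lay below and 5 above (20.0% and 18.4% of all regions), and at 96 h, 4 below and 7 above (16.7% and 16.2%). Between 48 and 96 h, 7 were lower and 2 higher, against 17.9% and 16.6% of all regions. Relative to 0 h in all 6 PHx libraries, 1 was lower (Lect2 -2.33 kb) and 2 higher (Slc1a2 +85.46 kb and the Tbx3 promoter), against 4.58% and 4.50% of all regions. Among weaker regions that were in some lists only, 5 of the 130 were in both 0 h lists and in neither 48 h list (3.85%), against 1.70% of all 315767 regions, and 0 showed the reverse, against 1.06%. The 5 included the Cyp1a2 promoter, the internal Slc1a2 start site and a region 8.97 kb before Cyp2e1 (chr7:140754684-140754858), which stood at 43.4 and 29.0 at 0 h and was in none of the 6 PHx lists, as were 0.230% of all regions. At 72 h, 6 regions were in both 72 h lists and neither 0 h list, against 2.81% of all regions, and 2 the reverse, against 0.706%. At 96 h, 1 was in both 96 h lists and neither 0 h list, against 1.56%, and 2 the reverse, against 0.940%.

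Further regions, chosen after their values were seen, are given by their values. Rhbg had the densest group, with regions at +8.67, +10.40 and +11.98 kb beside that at +17.03 kb, and mean percentiles of 75.6, 69.1 and 84.5. The region at +8.67 kb, in an intron and with a CTCF match at its summit, had normalised fold enrichments of 6.95 and 7.58 at 0 h, between 6.77 and 8.21 at 48 and 72 h, and 5.71 and 4.45 at 96 h. Its 96 h libraries lay below all others (-0.53 ± 0.30 against 0 h, limma adjusted p = 0.910). The region at +11.98 kb, just past the end of the gene, had 6.23 and 7.91 at 0 h and 8.03 and 10.1 at 48 h (0.36 ± 0.29, limma adjusted p = 0.715), and the regions past the ends of Cyp2e1 (+11.62 kb) and Cyp1a2 (+8.0 kb) differed by -0.10 ± 0.27 and 0.20 ± 0.28 (adjusted p = 0.936 and 0.859).

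The Glul region at +18.73 kb, chosen in the same way as those that follow it, had 2.49 and 5.09 at 0 h and 6.18 and 4.94 at 48 h. Its 0 h libraries lay far apart and overlapped those of 48 h (0.64 ± 0.36, limma adjusted p = 0.578). In an intron of Oat, the region at +4.68 kb had 3.57 and 3.26 at 0 h and 2.74 and 2.66 at 48 h, so that both 48 h libraries were lower (-0.34 ± 0.28, limma adjusted p = 0.728), as they were at Oat +24.45 kb. A second Tbx3 promoter region, 0.74 kb before the start, stood at percentiles between 36.1 and 65.7 in 7 lists and was missing from 96 h replicate 2, well below the 97.6 or more of the main one.

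The number of regions among the 50000 strongest intervals of a list was similar at all times. It was 26 and 29 at 0 h, then 29 and 26 at 48 h, then 27 and 25 at 72 h, and finally 27 and 25 at 96 h, and the 0 h pair overlapped every later pair. Promoter regions made up 6 and 8 of these at 0 h, then 6 and 6 at 48 h, then 5 and 6 at 72 h, and finally 5 and 5 at 96 h. By gene, Rhbg contributed 4 to 6 and Slc1a2 7 to 9 in each library, and Cyp1a2 2 and 4 at 0 h and 1 to 3 afterwards.

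The TCF/LEF letters were found in 5 of the 34 windows (14.7%), against 3.12% of the windows of all 57473 regions. Matches were sought on both strands in the 200 bp around the summit, and no match overlapped that of another motif. They lay at Cyp2e1 -7.05 kb, Slc1a2 +53.02, +57.32 and +106.14 kb and the Lect2 start site, so 3 of the 5 share a gene. In the Lect2 start site the match began 1 base from the summit, in Slc1a2 +106.14 kb 14 bases and in Cyp2e1 -7.05 kb 20 bases from it. The 5 regions had no shared direction at 48 h, with log2 differences of -0.06, 0.52, -0.52, 0.08 and -0.33 in that order. In the RefSeq start sites, 2 of the 6 matched genes held the letters (Lect2, and Slc1a2 207 bases before its internal start), against 3.73% of 32851 promoters of the same length. The Lect2 match is the same site as the one counted among the windows, so the 2 shares are not separate.

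Of the other motifs, the xenobiotic response element (TNGCGTG) was in 8.82% of the 34 windows against 3.06% of all, and AP-1 (TGANTCA) in 11.8% against 7.50%. The CTCF core was in 11.8% against 11%, and C/EBP (TTNNGCAA) in 8.82% against 12.7%. HNF4 (AAAGTCC) was in 2.94% against 5.03%, FOXA (TGTTTAC) in 2.94% against 4.76%, and the HNF1 motif in 0 of 34 against 1.32%. The AP-1 matches lay at Lect2 -1.07 and -10.51 kb, Rhbg +11.98 kb and Oat +24.45 kb, and their 48 h log2 differences were 0.94, -0.17, 0.36 and -0.44. The median GC content of the windows was 52.5% for the 34 and 51.5% for all. A letter match is not evidence of a bound factor, and a window without one says only that these letters are absent from it.

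**Figure D5:**
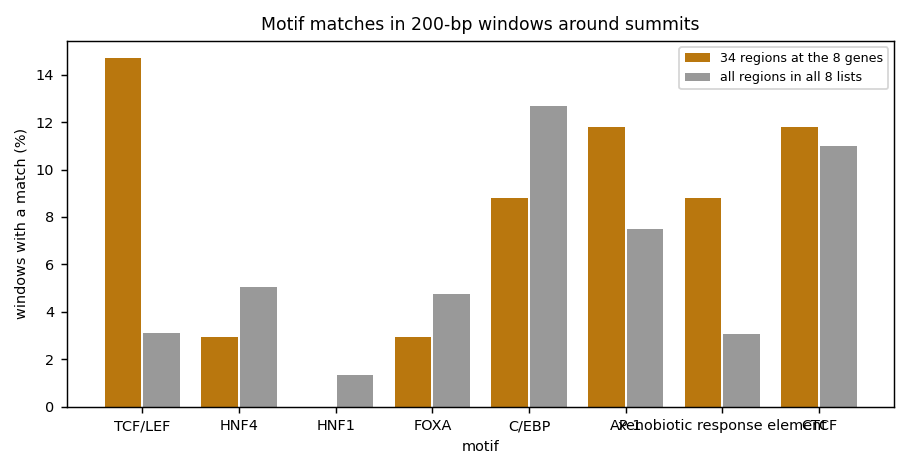
Share of 200-bp windows around region summits with at least 1 match to each of 8 motifs on either strand, for the 34 regions at the 8 genes and for all 57473 regions found in all 8 lists. The TCF/LEF bars stand at 14.7% and 3.12%, and the CTCF bars at 11.8% and 11%.

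Other zonated genes give the setting for these values. Of 22 further pericentral genes, 6 promoters lay wholly below 0 h and 4 wholly above at 48 h, while of 16 periportal genes, such as those of the urea cycle, 7 lay below and 0 above, beside the 19.6% and 18.3% of coding promoters given above. On normalised fold enrichment, 6 of the 18 further pericentral promoters that could be fitted were positive at 48 h and 12 negative (median -0.15). Of 12 periportal promoters 6 were positive and 6 negative (median 0.04), beside a median of 0.00 for coding promoters. None passed limma at an adjusted p of 0.05. A promoter region had to be in every list to be fitted. That left out the periportal Arg1, Pck1, G6pc and Cyp2f2, whose mean percentiles at 48 h differed from 0 h by -43.2, -29.3, -18.1 and -39.7. Of the further pericentral genes it left out Cyp2c29, Cyp2c50 and Cyp2c54 (-24.9, -57.3 and -11.5) and Cyp2a5 (0.0). The largest fitted differences in the pericentral list were -0.74 ± 0.41 for Cyp7a1 (the rate-limiting enzyme of bile acid synthesis, limma adjusted p = 0.565) and -0.57 ± 0.35 for Gstm1 (a glutathione S-transferase, adjusted p = 0.611). In the periportal list they were -0.87 ± 0.32 for Cdh1 (E-cadherin, limma adjusted p = 0.372) and -0.76 ± 0.38 for Hsd17b13 (a lipid droplet enzyme, adjusted p = 0.518). By percentile, Gstm1 and Cdh1 lay below 0 h in both 48 h libraries. Cyp7a1 (14.0 and 75.1 at 48 h, 71.8 and 76.6 at 0 h) and Hsd17b13 (0.825 and 79.6, 77.7 and 87.9) did so in 48 h replicate 1 alone. Of 15 genes of the Wnt machinery, 0 promoters lay below and 2 above at 48 h. On normalised fold enrichment 10 were positive and 5 negative (median 0.07), and the largest differences were 0.60 for Lef1 (adjusted p = 0.536) and -0.49 for Porcn, which modifies Wnt ligands (adjusted p = 0.554). The Lef1 promoter stood at percentiles 37.4 and 31.0 at 0 h and between 57.9 and 83.4 in all 6 PHx libraries. That of Rspo3, the endothelial ligand named above and 1 of the 6 endothelial markers, stood at 49.2 and 52.0 at 0 h. After PHx it stood between 76.2 and 89.9 (1.01 ± 0.29 at 48 h, limma adjusted p = 0.296). Of the other endothelial genes, the fitted region of Pecam1, an adhesion molecule, differed most (-0.57 ± 0.36, limma adjusted p = 0.622). That merged region reaches the promoter window but was not a promoter interval in most lists. Within 1 kb of a start site, Pecam1 had an interval in 3 lists, with none at 0 h and none and 60.3 at 48 h.

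Promoters with the most similar course over the 8 libraries, by Pearson correlation of normalised log2 fold enrichment among 13260 promoters, are given as a description. They were Pex7 for Cyp2e1 (r = 0.971), Rela for Glul (0.970), Chmp4c for Oat (0.987), Arl10 for Rhbg (0.966), Hic1 for Tbx3 (0.986) and Car2 for Lect2 (0.983). None of these 6 was among the 3 most similar promoters of another, and Cyp1a2 and Slc1a2, with no promoter interval in some lists, were not compared. All promoters share the same 8 libraries, and values of this size are the highest of many.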

How the data were processed

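The members and gene lists were chosen with earlier results of these data known. Bulk ATAC-Seq of mouse hepatocytes was available for 8 libraries, grouped by their labels into undamaged liver (0 h) and 3 times after PHx (48, 72 and 96 h), with 2 libraries each. Per the study's methods, the authors ran the ENCODE pipeline on each library: reads were trimmed and mapped to mm10 with Bowtie2, PCR duplicates were removed, and peaks were called with MACS2. The deposited peak lists give, for each peak, a fold enrichment (a ratio over local background), a −log10 p, a −log10 q, a display score and a summit offset. The display score, which the authors' peak caller derives from the other values, and read counts were not used, and depth is therefore unknown.

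Lines that shared an interval were reduced to the one with the highest −log10 p and ranked within their list. Intervals of all lists were merged (at least 1 bp shared) into 315767 regions. For the 57473 regions in all 8 lists, log2 fold enrichment (no pseudocount) was quantile-normalised and fitted with limma 3.58.1 in R 4.3.3 (trended variance, 4 time points, 4 residual degrees of freedom, Benjamini-Hochberg adjustment over all regions), without a replicate block. The method was tested on simulated data. Same-numbered replicates did not deviate together region by region (correlations −0.06 to 0.12 after normalisation), so no pairing was used. A shift common to a whole library is removed by the normalisation and could not show in these correlations. Genes and start sites were from GENCODE M21 and sequences from GRCm38.p6 and RefSeq (6 of 8 genes matched). The 8 motifs were sought in 200 bp around the summit. Named were the 8 genes with their promoter and strongest distal regions. Of the further pericentral, periportal, Wnt and endothelial lists, the 2 fitted promoter regions that differed most at 48 h were named. Further marker genes were named as a check of cell identity, and the stellate and cholangiocyte lists were given mainly as sums. Regions named beyond that rule were chosen after their values were seen. Alternatives covered the normalisation, the measure, the q-value filter, interval width, start-site windows, flanks, rank limits, a replicate block and each library left out. The names of 7 lists carry 1 sequencing lane code and that of 72 h replicate 2 does not, so the leave-one-out values also cover that library.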

Additional observations from a re-analysis of the deposited data

How the results depend on the processing

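Depth is unknown and each time point had 2 libraries, so small differences at the 8 genes could not be resolved. The number of regions called at the 8 genes was 0 in all 4 comparisons under median centring, −log10 p in place of fold enrichment, intervals with q under 0.05, the common 50000 strongest, 200 bp around summits and every library left out (lowest and highest both 0), with a lowest adjusted p from 0.275 to 0.954 for 48 h, 0.392 to 1.0 for 72 h and 0.483 to 1.0 for 96 h against 0 h, and from 0.328 to 0.772 for 96 h against 48 h. The replicate block also gave 0 calls at the 8 genes, and 3 regions in the whole table at 48 h. In the same settings limma called at most 15, 6, 1 and 2 regions of the whole table.

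Promoters wholly below 0 h at 48 h numbered 3, and 1 on fold enrichment over the list median (3 to 4 with a library left out). Those wholly above numbered 1, and 2 by plain rank or with start sites within 2 kb (2 to 3 with a library left out). At 72 h, 1 lay below, and 2 by plain rank, and 4 lay above (4 to 7 with a library left out, 7 without 72 h replicate 1). For 96 h, 2 lay below, and 1 on fold enrichment over the list median (2 throughout with a library left out), and 4 above (4 to 6). Against 48 h, 0 to 1 lay below and 6 to 7 above at 96 h with a library left out. The mean number of regions among the strongest intervals, 27.5, 27.5, 26.0 and 26.0 at 0, 48, 72 and 96 h, was 9.0, 8.0, 9.0 and 10.0 with 25000 intervals and 63.0, 58.0, 67.5 and 63.0 with all intervals, and 39.5 at 72 h with 25 kb on either side. With a library left out these means lay between 26.0 and 29.0 at 0 and 48 h and between 25 and 27.0 at 72 and 96 h. Of the single regions, the 48 h log2 difference at the Glul promoter ran from -0.42 to 0.00 and at the Rhbg promoter from -0.09 to 0.28 with a library left out (0.00 and -0.09 without 48 h replicate 1). Without 48 h replicate 1 it was -0.15 at the Cyp2e1 promoter and 0.51 at the Oat promoter, against -0.63 and 0.11 without 48 h replicate 2. At Lect2, the start site ran from -0.52 to -0.14 (the latter without 48 h replicate 1), -1.07 kb from 0.54 (without 0 h replicate 2) to 1.32 and -2.33 kb from -1.15 to -0.57. At 96 h, Slc1a2 +16.79 kb had 0.62 without 96 h replicate 1 and +57.32 kb -0.32 without 96 h replicate 2 (up to 1.33 and down to -1.20). The cause of these shifts was not tested.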
